A study of Mus musculus with 6 samples.

Results

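The genes described here were 41 genes of homologous recombination, Fanconi anemia crosslink repair and the checkpoint that acts with them, chosen by symbol from the 16880 genes of the deposited expression table. Total RNA was sequenced from ATDC5, a mouse chondrogenic cell line, after 24 h in culture. One group received the inflammatory cytokine IL-1β at 10 ng/mL. The other received the same dose of cytokine and, at 10 μmol/L, NP-G2-044, a small molecule inhibitor of the actin-bundling protein fascin (FSCN1), and is called the inhibitor group. Each group had 3 libraries, 6 in all, and every library came from cells given IL-1β. The comparison therefore asks how the inhibitor altered the cytokine-treated cells, and a DMSO group that the methods list was not analysed here. The sample titles give NP-G2-044, while the treatment label of those samples reads NP-G2-047. The methods speak of chondrocytes, whereas the labels name the ATDC5 line. The 3 libraries of a group are called biological replicates in the methods, but all come from 1 cell line. The p-values therefore measure the spread between libraries of that line, which is at most that between its cultures.

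The defining markers of cartilage were low in these cells. Of 17 chondrocyte markers, 11 were listed in the table, 8 of these were below 1 TPM (transcript share, scaled to a fixed total per library) in all libraries, and Matn1 was at 0 throughout. Col2a1, the type II collagen of cartilage, had a mean of 0.217 TPM with IL-1β alone and 0.040 TPM in the inhibitor group, whereas Sox9 had 6.44 and 11.4 TPM. Also above 1 TPM, Sox5 went from 10.3 to 2.27 TPM and Col11a2 from 5.01 to 3.43 TPM. The summed level of the chondrocyte list was 22.7 to 23.8 TPM with IL-1β and 17.8 to 18.8 TPM with the inhibitor. Of 12 fibroblast markers, Thy1 was at 0 in all libraries, and the summed level of the list was 7585 to 7809 TPM with IL-1β and 2372 to 2479 TPM with the inhibitor. Most of that sum came from S100a4 (4313 and 730 TPM), Vim (2208 and 1326 TPM) and Col1a2 (1098 and 331 TPM). By edgeR at an adjusted p below 0.05, 8 of 9 tested fibroblast markers fell and Pdgfra rose (2.36 and 8.69 TPM). Of all genes tested, 39.8% fell and 40.2% rose. All 5 listed endothelial, 5 of 6 listed epithelial and 5 of 6 listed myeloid markers were below 1 TPM in every library, the myeloid exception being Cd68 (12.4 and 130 TPM). Whether these marker changes had a part in the repair gene values was not tested.

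Homologous recombination repairs broken chromosomes by copying the sister chromatid and is therefore used mainly after DNA has been replicated. The broken end is first resected to single-stranded DNA, BRCA1, PALB2 and BRCA2 then load the recombinase onto it, and crossed-over DNA is finally cut or dissolved. The Fanconi pathway handles crosslinked DNA: a core complex attaches ubiquitin to FANCD2 and FANCI, which recruits nucleases and the recombination machinery. ATR and ATM are the kinases that signal stalled forks and breaks to the checkpoint kinases CHK1 and CHK2. Many of these genes are transcribed most in proliferating cells.

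Library totals were between 16615824 and 16878164 reads in the IL-1β group, between 17529844 and 17735860 in the inhibitor group, and replicates differed little, with a common biological coefficient of variation of 2.33%. All 41 repair genes were present and all passed the filter on low counts. A library gave between 86.7 and 4873 reads per gene, so no member rested on a handful of reads. Mean levels ran from 6.02 TPM (Fancf) to 91.6 TPM (Topbp1) with IL-1β and from 2.84 TPM (Fancm) to 61.5 TPM (Topbp1) with the inhibitor.

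Most of the recombination and Fanconi genes were lower in the presence of the inhibitor. In edgeR's quasi-likelihood test at an adjusted p below 0.05, 35 of 41 (85.4%) fell, 4 (9.76%) rose and 2 were not called. Over all 11983 genes tested, 39.8% fell and 40.2% rose by the same rule. The 4 genes that rose were Mus81, Rbbp8, Atr and Rad51d, and Nbn and Fancf were not called. For the genes that fell, log2 fold changes ran from -1.55 to -0.12. A log2 fold change above 1 in size was then also asked for. By both cutoffs 10 of the 41 repair genes fell and 0 rose, against 10.1% and 6.48% of all genes. In CPM (reads scaled to library size) the 3 libraries of one group lay entirely below or above those of the other for 35 genes in the lower and 4 in the higher direction, while 40.3% and 40.5% of all genes separated in these directions. The median log2 fold change of the 41 genes was -0.54, and that of all genes tested was 0.0018.

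**Figure D1:**
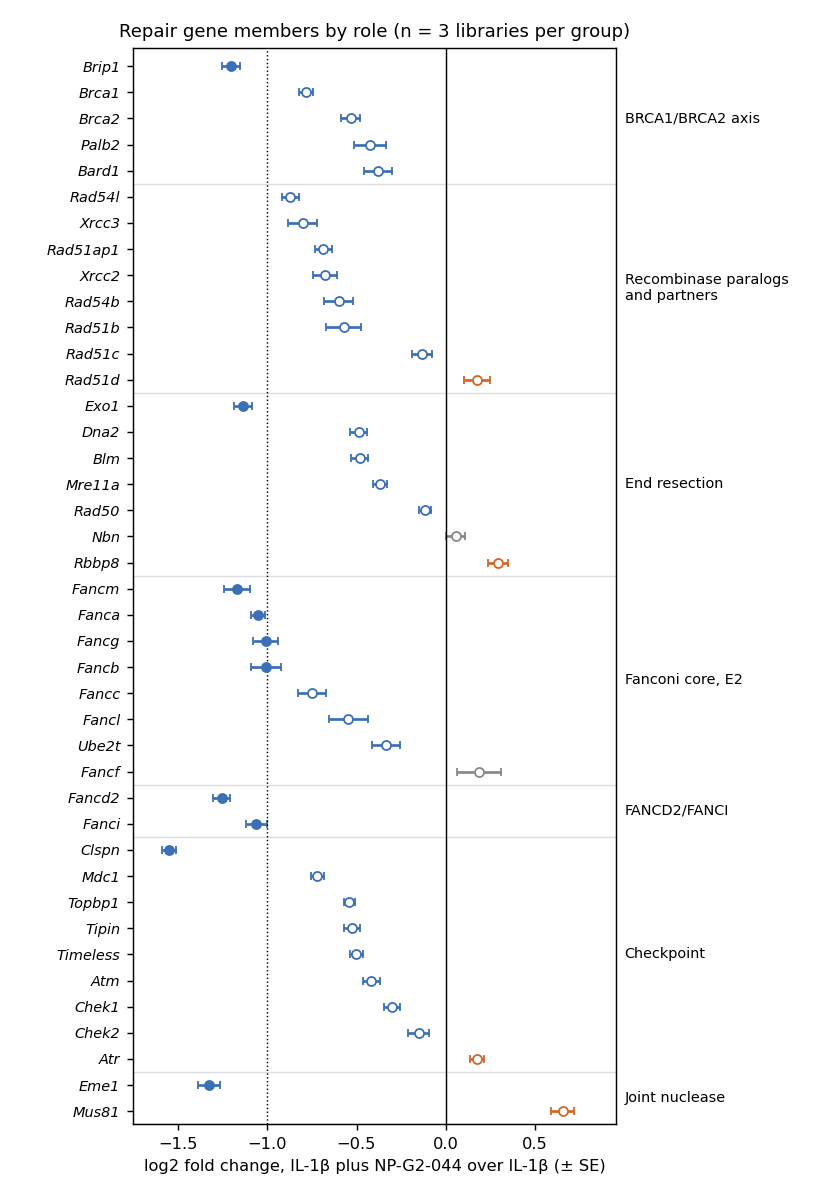
Log2 fold change of each of the 41 repair genes, inhibitor over IL-1β alone, grouped by role. Bars are standard errors from edgeR with 3 libraries per group, blue marks genes that fell, orange those that rose and grey those not called, filled circles mark genes past both cutoffs, and the dotted line stands at -1. The points run from -1.55 (Clspn) to 0.65 (Mus81).

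The set as a whole was lower as a share of the library. Summed TPM over the 41 genes was 1001, 1036 and 1053 with IL-1β and 700, 675 and 688 with the inhibitor, so the groups were far apart. The mean sums were 1030 ± 26.3 and 688 ± 12.6 TPM (SD, n = 3), a fall of 33.2%. The size of the change had little relation to the level of the gene: across the 41 genes, which share libraries and so are not independent, the log2 fold change had a Pearson r of -0.21 with the log2 IL-1β level and a Spearman rho of -0.19 with that level.

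**Figure D2:**
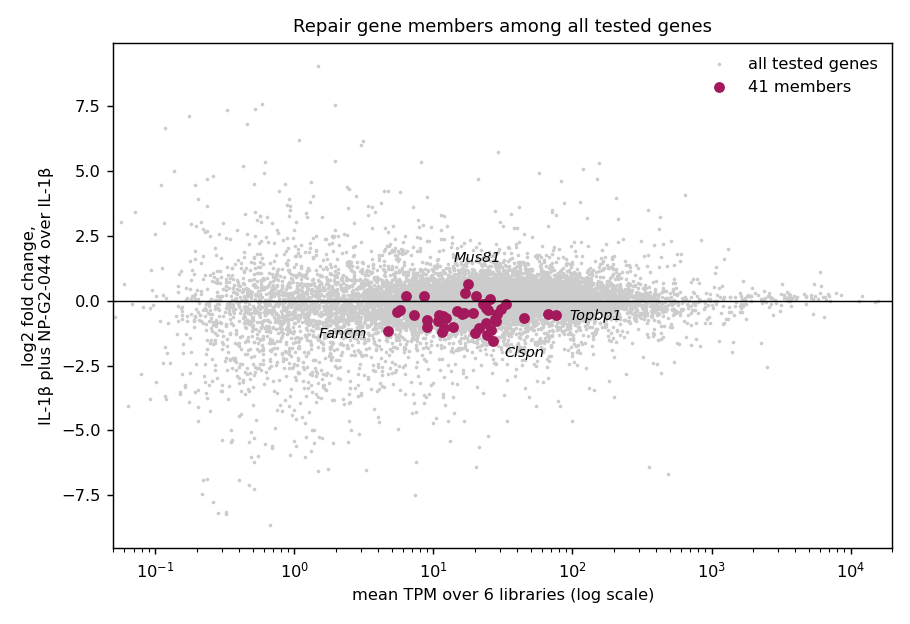
Mean TPM over the 6 libraries (log axis) against log2 fold change, inhibitor over IL-1β alone, for all 11983 genes tested (grey) and the 41 repair genes (red). The repair genes sit in the middle of the expression range and mostly below 0, with a median of -0.54.

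The largest fall was that of Clspn (chr4:126556957-126594533), which encodes claspin, the adaptor through which ATR activates CHK1 and which also travels with the replication fork. Clspn had 39.4, 40.0 and 41.6 TPM with IL-1β and 13.9, 13.4 and 13.1 TPM with the inhibitor. Every treated library lay far below every IL-1β library. The log2 fold change was -1.55 (SE 0.040, edgeR adjusted p = 9.03e-38), a level 65.8% lower. The largest rise was that of Mus81 (chr19:5482561-5488389), the catalytic subunit of a nuclease that cuts branched DNA. It had 13.3, 13.6 and 14.9 TPM with IL-1β and 20.8, 22.4 and 21.2 TPM with the inhibitor, again without overlap, a log2 fold change of 0.65 (SE 0.067, edgeR adjusted p = 1.02e-12).

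The sequences just upstream of both genes and of Atr, the only kinase among the repair genes that rose, are shown. They differ in which motifs of cell cycle promoters they hold. Each run ends at the base before the start of the gene in RefSeq, build GRCm38.p6 (mm10). It is given on the strand of the gene, and capitals mark a match to a motif described below. In GENCODE vM21, 22 bases of the Clspn run and 13 of the Mus81 run lie in an exon of the same gene. Clspn (chr4:126556730-126556956, plus strand) holds a CCAAT box in reverse orientation 42 to 46 bases before the gene start, Mus81 (chr19:5488390-5488629, minus strand) holds none of the motifs searched, and Atr (chr9:95857347-95857596, plus strand) holds a TTCGAA that lies 210 to 215 bases before it. The Atr window also lies wholly in an exon of the antisense noncoding gene 1700065D16Rik. The run before Eme1, the next largest fall (log2 fold change -1.33), has 157 bases, likewise holds none of the motifs searched and is not shown. At least 128 of its bases lie in GENCODE vM21 exons of Eme1 or Mrpl27. The full 300-base window of Eme1, used for the counts below, does hold a match to the cell cycle homology region.
Clspn: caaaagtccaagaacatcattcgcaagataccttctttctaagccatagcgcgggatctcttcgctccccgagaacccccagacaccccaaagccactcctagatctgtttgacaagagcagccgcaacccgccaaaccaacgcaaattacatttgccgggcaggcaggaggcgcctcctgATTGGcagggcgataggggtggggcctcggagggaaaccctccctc
Mus81: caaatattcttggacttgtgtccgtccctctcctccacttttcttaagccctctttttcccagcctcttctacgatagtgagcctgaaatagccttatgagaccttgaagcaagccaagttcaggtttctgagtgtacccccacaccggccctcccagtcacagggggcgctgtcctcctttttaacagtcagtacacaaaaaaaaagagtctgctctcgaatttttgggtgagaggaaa
Atr: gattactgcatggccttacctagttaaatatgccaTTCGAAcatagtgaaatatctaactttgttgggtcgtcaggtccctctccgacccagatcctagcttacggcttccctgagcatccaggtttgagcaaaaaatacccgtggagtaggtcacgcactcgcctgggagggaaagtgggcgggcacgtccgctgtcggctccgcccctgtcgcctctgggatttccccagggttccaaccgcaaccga

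Motifs were searched on both strands in the given RefSeq windows, each from 250 bases before to 50 bases after a RefSeq start, 300 bases in all, and 32 of the 41 genes had at least 1 window (35 windows). E2F sites, the letters through which E2F factors time genes to DNA replication, were TTTCCCGC, TTTGGCGC, TTTCGCGC and TTTGCCGC. They were found in 9 of 35 windows (25.7%), in 4.11% of the 12355 windows of tested genes and in 2.26% of all 32851 windows. The CCAAT box, bound by NF-Y, was found in 60%, 38.5% and 37.4% of these windows. The cell cycle homology region, TTTGAA or TTCGAA, stood in 11.4%, 13.9% and 19.2%, and the NRF1 half-site GCATGCGC in 11.4%, 5.29% and 2.71%. A window counted once however many matches it held, and no motif of one family contains one of another. These counts describe letters and were not tested. The 9 E2F matches are shown with the match in capitals, 30 bases each on the strand of the gene in GRCm38.p6, so that the letters counted above can be read in place. A window follows a RefSeq transcript start, which can lie inside the gene as RefSeq places it. The matches of Brca2, Chek2, Clspn, Fancg and Topbp1 and the first of Rad51c lie inside the RefSeq gene. Those of Bard1 and Mdc1 lie before it, and the second of Rad51c lies across its start. The 50 bases after the RefSeq starts of Brca2 and Mdc1 were not found whole in a GENCODE vM21 transcript of the gene.
Bard1, chr1:71103163-71103192, minus strand: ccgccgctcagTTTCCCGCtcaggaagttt
Brca2, chr5:150522442-150522471, plus strand: tttaggccacaGCGGGAAAcagacacacac
Chek2, chr5:110839820-110839849, plus strand: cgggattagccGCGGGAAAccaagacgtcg
Clspn, chr4:126556990-126557019, plus strand: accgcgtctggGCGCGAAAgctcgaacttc
Fancg, chr4:43010335-43010364, minus strand: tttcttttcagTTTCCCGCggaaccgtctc
Mdc1, chr17:35841471-35841500, plus strand: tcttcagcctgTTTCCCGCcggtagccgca
Rad51c, first window, chr11:87404477-87404506, minus strand: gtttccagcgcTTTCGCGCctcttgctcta
Rad51c, second window, chr11:87404941-87404970, minus strand: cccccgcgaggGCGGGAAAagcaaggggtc
Topbp1, chr9:103305187-103305216, plus strand: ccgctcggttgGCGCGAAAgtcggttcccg

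Genes with and without a match had similar medians. The 8 genes with an E2F match had log2 fold changes from -1.55 (Clspn) to -0.13 (Rad51c) with a median of -0.54, and the 24 with a window but no match had a median of -0.56, from -1.33 (Eme1) to 0.65 (Mus81).

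The 5 genes of the BRCA1 and BRCA2 axis all fell, with a median log2 fold change of -0.53. The largest fall was that of Brip1, the helicase that binds BRCA1 and is also known as FANCJ. It had 14.4, 17.1 and 17.1 TPM with IL-1β and 7.03, 6.70 and 6.86 TPM with the inhibitor, a log2 fold change of -1.20 (SE 0.053, edgeR adjusted p = 5.46e-24). No treated library reached the lowest IL-1β library. Brca1, the ubiquitin ligase that recruits PALB2, went from 34.6, 34.2 and 36.4 TPM to 22.4, 20.02 and 20.98 TPM (log2 fold change -0.78, SE 0.041). Bard1, the obligate partner of BRCA1, was expressed at a much lower level and changed less: 7.20, 6.14 and 6.80 TPM became 5.51, 4.07 and 4.99 TPM (log2 fold change -0.38, SE 0.078). Brca2, which loads the recombinase onto single-stranded DNA, fell by 0.53 on the log2 scale and Palb2, which links BRCA1 to BRCA2, by 0.43. The groups separated in TPM for all 5 genes, and the summed level of the axis went from 83.4 ± 3.52 to 50.5 ± 2.57 TPM (SD, n = 3).

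The recombinase paralogs form complexes that help the recombinase assemble, and RAD54L, RAD54B and RAD51AP1 help it invade the homologous duplex. Of these 8 genes 7 fell and 1 rose, with a median of -0.64. Rad54l, a translocase, fell most and went from 30.2, 32.0 and 31.8 TPM to 15.5, 17.3 and 16.03 TPM (log2 fold change -0.87, SE 0.047, edgeR adjusted p = 3.11e-23). Rad51ap1 had the highest level of the group, with 53.3, 57.1 and 58.3 TPM with IL-1β and 34.4, 31.4 and 36.3 TPM with the inhibitor (-0.68). Both separated without overlap. Xrcc3 fell by 0.80, Xrcc2 by 0.68, Rad54b by 0.60 and Rad51b by 0.57 on the log2 scale.

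Rad51c, which is shared by both paralog complexes, and Rad51d, its partner in one of them, had the least certain calls of the group. Rad51d had 8.87, 8.27 and 7.08 TPM with IL-1β and 8.89, 9.10 and 8.73 TPM with the inhibitor. These TPM ranges overlapped, although the CPM values did not, and the log2 fold change was 0.17 (SE 0.074, edgeR adjusted p = 0.0298). Without IL-1β replicate 2 or replicate 3, or without inhibitor replicate 2, the edgeR adjusted p of Rad51d was 0.0600, 0.145 and 0.1004. Rad51c had 24.04, 28.1 and 26.6 TPM with IL-1β and 20.9, 21.0 and 21.0 TPM with the inhibitor. Its log2 fold change was -0.13 in counts (SE 0.056, edgeR adjusted p = 0.0258) and -0.32 in TPM, and it is the 1 repair gene for which these 2 measures differed by more than 0.1. Leaving out IL-1β replicate 2 or inhibitor replicate 1 moved the edgeR adjusted p of Rad51c to 0.0959 and 0.225.

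Among the 7 genes of end resection, 5 fell, 1 rose and 1 was not called. The MRN complex, which finds the break and starts resection, had changes from -0.37 to 0.05. Its nuclease Mre11a had 27.2, 27.4 and 29.1 TPM with IL-1β and 20.7, 21.4 and 21.3 TPM with the inhibitor (log2 fold change -0.37, SE 0.038). Rad50, the subunit that tethers the ends, had 34.8, 34.1 and 35.7 TPM and then 31.9, 31.3 and 31.0 TPM (-0.12, SE 0.035, edgeR adjusted p = 0.00252). Nbn, the subunit that binds ATM, had 25.8, 25.6 and 25.4 TPM and then 26.5, 24.6 and 26.5 TPM, which overlapped (0.05, SE 0.052, edgeR adjusted p = 0.330). The groups separated for Mre11a and Rad50 but not for Nbn. Rbbp8 encodes CtIP, which switches on the MRN nuclease, and was higher in every treated library: 14.4, 15.7 and 16.5 TPM became 18.3, 18.8 and 18.1 TPM (0.29, SE 0.054, edgeR adjusted p = 3.35e-06).

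The enzymes of long-range resection were all lower. Exo1, the exonuclease, had 34.96, 36.5 and 36.5 TPM with IL-1β and 17.4, 15.2 and 16.03 TPM with the inhibitor. It thus lay below the IL-1β range in each treated library, with a log2 fold change of -1.14 (SE 0.049, edgeR adjusted p = 1.35e-27). Dna2, the nuclease of the other long-range route, fell by 0.49 on the log2 scale and its helicase partner Blm, which also dissolves crossed-over DNA, by 0.48.

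The Fanconi core complex and its ubiquitin-conjugating enzyme had the lowest median of the role groups with more than a pair of genes, -0.88. Of the 8 genes 7 fell and Fancf was not called. Fancm, the translocase that anchors the complex to DNA, fell most of the group, from 6.04, 6.30 and 7.26 TPM to 3.16, 2.63 and 2.73 TPM (log2 fold change -1.17, SE 0.075, edgeR adjusted p = 1.41e-19). Fanca, a scaffold subunit, went from 28.8, 29.0 and 29.5 TPM to 14.0, 13.8 and 13.3 TPM (-1.05, SE 0.041, edgeR adjusted p = 1.30e-29). Both were below the IL-1β range in every treated library.

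Fancg, which binds FANCA, had 18.02, 18.7 and 19.7 TPM with IL-1β and 8.44, 9.94 and 8.78 TPM with the inhibitor (log2 fold change -1.01, SE 0.070, edgeR adjusted p = 9.36e-19). Fancb, an X-linked subunit of the catalytic module, had 12.3, 12.8 and 11.2 TPM and then 5.80, 5.68 and 5.94 TPM (-1.004, SE 0.084, edgeR adjusted p = 8.65e-16). Both lay at the fold cutoff: when libraries were left out in turn, the value of Fancg ran from -1.08 to -0.96 and that of Fancb from -1.08 to -0.96, so that 8 or 9 repair genes passed both cutoffs in place of 10. Their fall itself was called in each case. Fancc fell by 0.75 and Fancl, the ubiquitin ligase of the complex, by 0.55 on the log2 scale, while Ube2t, the conjugating enzyme that works with FANCL, fell by 0.34. Fancf, an adaptor, had 6.25, 6.06 and 5.74 TPM and then 6.55, 7.69 and 5.93 TPM, which overlapped (0.18, SE 0.123, edgeR adjusted p = 0.165).

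Both targets of the core complex passed both cutoffs. Fancd2 had 27.0, 28.2 and 29.8 TPM with IL-1β and 12.7, 10.9 and 11.6 TPM with the inhibitor, a log2 fold change of -1.25 (SE 0.048, edgeR adjusted p = 2.91e-26). Fanci, its partner in the clamp that closes on DNA, had 15.7, 15.6 and 17.1 TPM and then 7.49, 7.36 and 7.83 TPM (-1.06, SE 0.057, edgeR adjusted p = 2.97e-23). The 3 treated libraries lay far below the others for both, and the summed level of the pair fell by 56.6%.

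**Figure D3:**
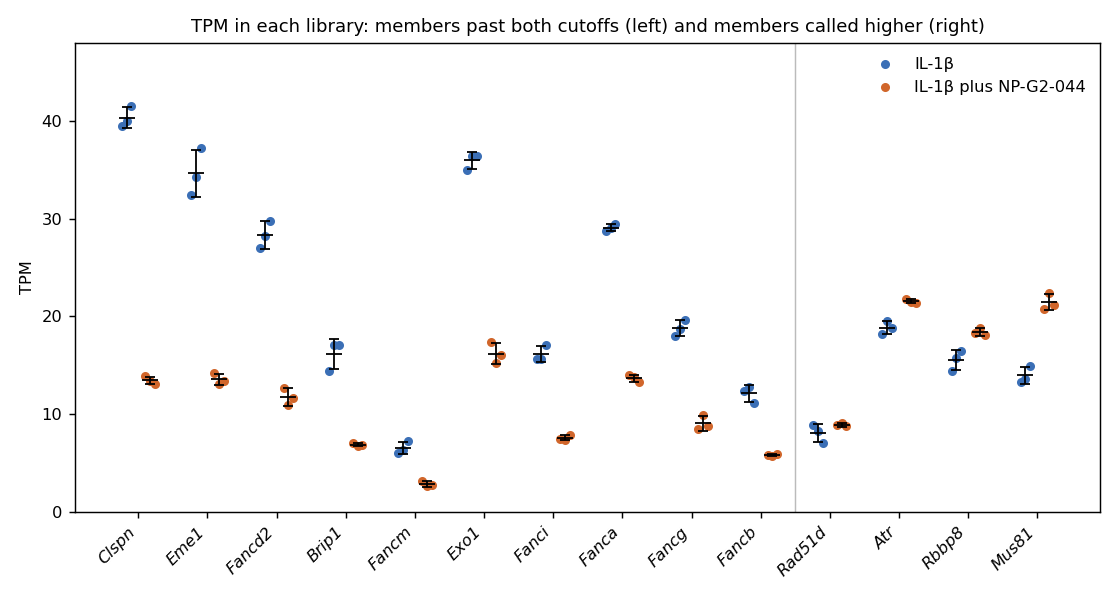
TPM of the 10 repair genes past both cutoffs and of the 4 genes that rose, in each of the 3 libraries per group. Horizontal bars are the group mean and error bars ± 1 SD (n = 3), and all 10 genes on the left lie lower in every treated library, while on the right the ranges of Rad51d overlap and those of the other 3 do not.

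In the checkpoint group 8 of 9 genes fell and Atr rose, and the group included both the largest fall and some of the smallest. Atr, the kinase that senses single-stranded DNA at stalled forks, had 18.2, 19.6 and 18.8 TPM with IL-1β and 21.7, 21.5 and 21.3 TPM with the inhibitor (log2 fold change 0.17, SE 0.040, edgeR adjusted p = 1.04e-04). Atm, the kinase that responds to breaks, went the other way, from 15.4, 17.3 and 18.6 TPM to 12.9, 12.3 and 12.1 TPM (-0.42, SE 0.048, edgeR adjusted p = 2.62e-07). Neither kinase had overlapping groups.

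Of the other genes in the group, Topbp1, the activator of ATR, was the most abundant of the 41 genes and went from 89.5, 90.9 and 94.4 TPM to 64.3, 59.7 and 60.6 TPM (log2 fold change -0.54, SE 0.030). Timeless and Tipin, which form the fork protection complex, changed by almost the same amount (-0.50 and -0.52), although their levels differed, at 34.0 and 78.8 TPM with IL-1β. Mdc1, the scaffold that spreads the damage signal on chromatin, fell by 0.72.

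The effector kinases had small changes. Chek1 had 27.0, 25.9 and 26.8 TPM with IL-1β and 21.1, 20.7 and 21.4 TPM with the inhibitor (log2 fold change -0.30, SE 0.046, edgeR adjusted p = 6.94e-08). Chek2 had 24.3, 24.7 and 23.8 TPM and then 21.9, 19.5 and 21.7 TPM, a small change (-0.15, SE 0.059, edgeR adjusted p = 0.0170). Without inhibitor replicate 2 Chek2 was at -0.10 and its edgeR adjusted p was 0.154.

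Eme1 and Mus81 encode the 2 subunits of 1 structure-selective nuclease and moved in opposite directions. Eme1, the non-catalytic subunit that MUS81 needs for activity, had 32.5, 34.2 and 37.2 TPM with IL-1β and 14.2, 13.1 and 13.4 TPM with the inhibitor (log2 fold change -1.33, SE 0.063, edgeR adjusted p = 1.17e-25). Eme1 was therefore the more abundant transcript of the pair in the IL-1β group, with 34.6 against 13.9 TPM for Mus81, and the less abundant one in the inhibitor group, with 13.5 against 21.4 TPM.

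Such unequal changes were set out as read ratios within each library, for 7 pairs of partners that were picked after the values were seen. The ratio of reads of Eme1 to Mus81 was 2.28, 2.33 and 2.36 with IL-1β and 0.646, 0.548 and 0.578 with the inhibitor, a log2 difference of -1.98 (SE 0.071). For Clspn to Atr the ratio was 1.79, 1.72 and 1.70 and then 0.529, 0.524 and 0.527 (-1.72, SE 0.023), and for Exo1 to Rbbp8 it was 2.12, 2.01 and 1.96 and then 0.794, 0.703 and 0.764 (-1.43, SE 0.061). The ratio of both genes in a library does not depend on how that library was scaled.

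The other 4 pairs differed by less. The log2 difference was -0.92 (SE 0.084) for Fancd2 to Ube2t, -0.85 (SE 0.094) for Xrcc2 to Rad51d, -0.42 (SE 0.061) for Mre11a to Nbn and -0.40 (SE 0.089) for Brca1 to Bard1. Because the pairs were picked for their values, these ratios are a description and were not tested.

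**Figure D4:**
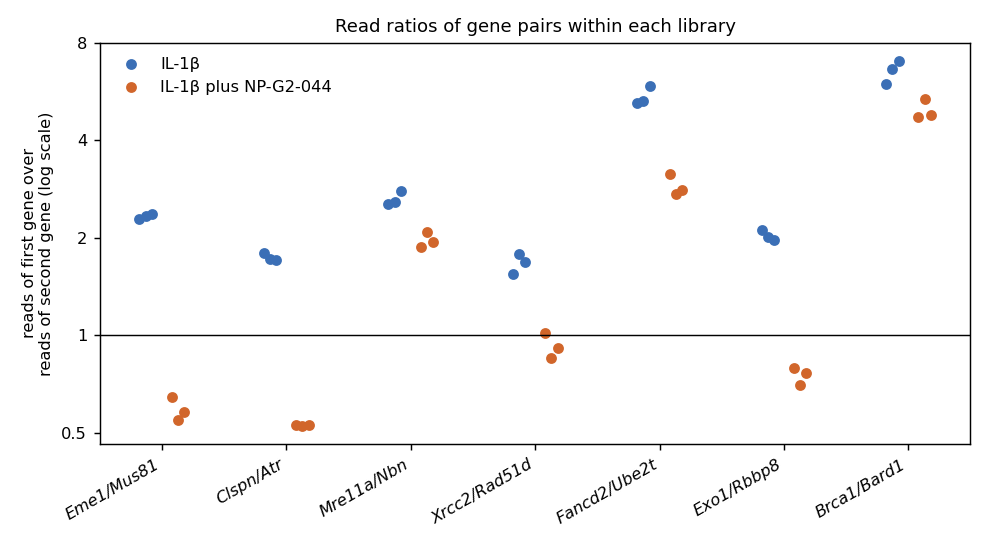
Reads of the first gene over reads of the second within each library (log axis) for 7 pairs of repair genes, 3 points per group. The ratios are not corrected for gene length, so only the shift between groups can be read, which is largest for Eme1/Mus81 (2.32 to 0.589 as geometric means).

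Some of these genes share exon sequence with a neighbour, and the sources used here do not say whether counting used strand. In GENCODE vM21, 18 of the 41 genes overlapped an exon of another gene, and for 12 of them that gene was in the table. Eme1 shares 221 exon bases with Lrrc59 on the opposite strand, which rose (0.75), and Mus81 shares 173 with Efemp2, which fell (-0.89), so in both the neighbour moved opposite to the repair gene. Fanca shares 920 bases with Zfp276 (0.38), Fanci 921 with Polg (-0.02) and Rad54l 1184 with Lrrc41 (0.21). Rad54b shares 35.8% of its exon bases with Fsbp on the same strand, which also fell (-0.63), so reads of these 2 cannot be told apart there. The part of these overlaps in the values was not tested.

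A list of 65 further genes of recombination, Fanconi repair and the checkpoint was also compared, and all 65 were tested. Of these 35 (53.8%) fell and 19 (29.2%) rose, against 39.8% and 40.2% of all genes, and 11 were not called, with a median log2 fold change of -0.16. Past both cutoffs 4 of the 65 fell and 0 rose, against 10.1% and 6.48% of all genes. The largest changes were those of Sfpq, an RNA and DNA binding protein of paraspeckles (-1.50, from 207 to 73.8 TPM), of Gen1, a nuclease that cuts Holliday junctions (-1.46, from 8.12 to 2.86 TPM), and of Parpbp, an inhibitor of recombination (-1.33, from 34.3 to 13.003 TPM).

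Within that list, some complexes were singled out after their values had been seen. All 3 subunits of RPA, the protein that coats single-stranded DNA, fell: Rpa1 by 0.67, Rpa2 by 0.68 and Rpa3 by 0.35 on the log2 scale. The 9-1-1 clamp, which brings TOPBP1 to ATR, and its loader rose in contrast. Rad9a went from 76.3 to 129 TPM (0.79), Rad17 from 31.1 to 47.3 TPM (0.64), Hus1 from 13.6 to 16.8 TPM (0.36) and Rad1 from 27.9 to 32.3 TPM (0.24). The edgeR adjusted p of these 7 genes was 0.00104 or lower, and their groups did not overlap in CPM. In the BRCA1-A complex, which holds BRCA1 at ubiquitin marks, Abraxas1 (0.70), Uimc1 (0.31) and Babam2 (0.20) rose, whereas Babam1 (-0.06) and Brcc3 (-0.07) were not called.

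Genes that mark replicating and dividing cells were also lower, and the values stand here because many repair genes follow the cell cycle. Of 26 S phase markers 22 fell and 2 rose, of which 1 rose in the limma fits on TPM, with a median of -0.53. By the same rule 39.8% of all genes fell and 40.2% rose. Their summed level was 2706 to 2735 TPM with IL-1β and 2045 to 2106 TPM with the inhibitor. Rrm2, a subunit of ribonucleotide reductase, was at -1.55 and Ccne2, a cyclin of S phase entry, at -1.42, but the origin licensing factor Cdt1 rose (1.21). All 24 G2/M markers fell, with a median of -1.58, and their sum went from 3248 to 3279 TPM down to 1119 to 1171 TPM. None of these markers was at 0. The median of the repair genes (-0.54) was thus close to that of the S phase list and smaller in size than that of the G2/M list, which included Mki67 (-2.25), Kif11 (-2.02) and Ttk (-1.97). In RNA from whole cultures, fewer cycling cells and less RNA per cell cannot be told apart, and the part of the cell cycle in the repair gene values was not tested.

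**Figure D5:**
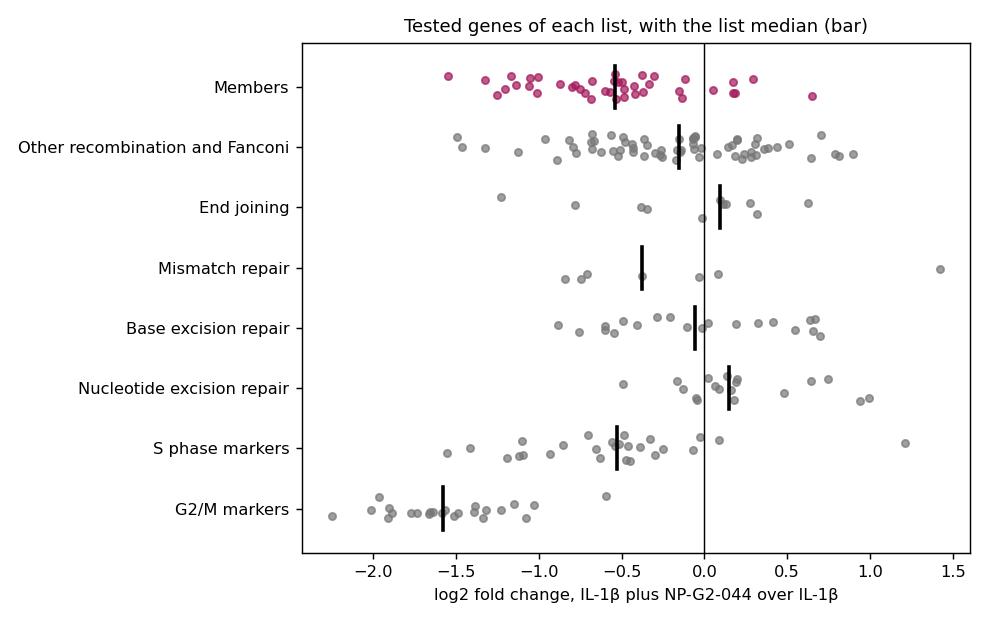
Log2 fold change, inhibitor over IL-1β alone, of every tested gene in 8 lists, with the list median as a black bar. The medians are -0.54 for the 41 repair genes, -0.16 for other recombination and Fanconi genes, -0.53 for S phase and -1.58 for G2/M markers, and the medians of the other repair pathways lie between -0.38 and 0.15.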

How the data were processed

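The 41 genes and all lists were chosen by function with earlier results of these data known. The labels name the Illumina TruSeq RNA kit, the methods state that BGI sequenced and quantified the libraries, and the submitters' processing notes name cutadapt, HISAT2 2.0, StringTie and mm10. The sources used here do not name the counting tool, annotation or strand use. The authors deposited expected counts, not normalized, of which 10.2% to 11.1% per library were not whole. TPM and FPKM were deposited beside them for each library, and neither FPKM nor the authors' averages entered any step.

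Expected counts were rounded, filtered with filterByExpr (minimum count 10), normalized by TMM and compared with edgeR 4.0.16 (robust quasi-likelihood F test, R 4.3.3), 3 libraries against 3 without covariates, with Benjamini-Hochberg adjustment over 11983 genes. The standard error is the size of the log2 fold change over the root of F. The steps were tested on simulated counts. Named genes were all 41, with full statistics for those past both cutoffs and the largest rise and fall per role, and up to 3 genes per other list with the largest change and a mean of at least 1 TPM. Some list genes are not reported here. Other genes are named as chosen after their values were seen. Alternatives were other normalizations, DESeq2 1.42.0, limma 3.58.1 (voom, and log2 TPM with a pseudocount of 1 or 0.1), other filters, a replicate block, omission of single libraries and glmTreat at a fold change of 2. Symbols matched GENCODE vM21 for all 41 genes.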

Additional observations from a re-analysis of the deposited data

How the results depend on the processing

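With DESeq2 size factors, library size alone, limma-voom, no filter or the replicate block, all 41 repair genes kept their direction and their side of the adjusted p threshold, although with limma-voom Fancb was at -0.998 and 9 in place of 10 were past both cutoffs. Under the replicate block 35 fell, 4 rose and 10 passed both cutoffs, the median log2 fold change was -0.54, and 62 genes of the 9 other lists rose and 114 fell, against 61 and 116 of 208 without it. For each library, the deviations of tested genes from their group mean were taken in log2 CPM. Between same-numbered libraries these deviations correlated at -0.093, -0.024 and 0.026, so the numbers were not taken to pair libraries. Asking for a change beyond a fold of 2 (glmTreat) left 6 of the 41 repair genes lower and 0 higher. Among the 208 list genes 8 were higher and 34 lower. Of all 11983 genes tested, 909 were lower and 564 higher by this rule. The 6 repair genes were Clspn, Eme1, Fancd2, Brip1, Fancm and Exo1. With limma on log2(TPM + 1) 6 repair genes in place of 10 were past both cutoffs, as Fancb, Fancg, Fanci and Fancm were between -0.9996 and -0.94, which the pseudocount shrinks. The median was -0.562 with log2(TPM + 0.1) and -0.568 with a floor of 10 CPM in 3 libraries, which dropped Fancf and Fancl, and -0.566 to -0.515 with libraries left out in turn. No result changed sign. DESeq2 did not call Rad51c, Rad51d or Chek2 (adjusted p 0.0850, 0.115 and 0.0635), and Rad51d was also lost with both TPM fits (limma adjusted p 0.143 and 0.146) and the stricter filter (edgeR adjusted p 0.0646). With libraries left out in turn 6 of 246 refitted calls were lost, all of them Rad51c, Rad51d or Chek2. The causes were not tested. Standard errors ran from 0.030 (Topbp1) to 0.123 (Fancf).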

Other observations

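The other DNA repair pathways were split between rises and falls. In mismatch repair, which corrects copying errors, 4 of 7 genes fell and 1 rose (median log2 fold change -0.38). The gene that rose was Msh3, which recognizes longer loops, from 22.3 to 60.1 TPM (1.42). In base excision repair 9 of 20 tested genes fell and 8 rose (median -0.06). The falls included Lig1 (-0.89) and Fen1 (-0.76), which also join and trim Okazaki fragments during replication, and the rises included Ogg1, the glycosylase for oxidized guanine (0.70). In nucleotide excision repair 10 of 18 genes rose and 3 fell (median 0.15), with the rises including Ercc8 (1.00) and Gtf2h1, a subunit of TFIIH (0.94). End joining, the break repair route that needs no sister chromatid, was even, with 4 of 11 genes lower and 4 higher (median 0.09): Polm (-1.23) and Nhej1 (-0.78) fell and Paxx (0.63) rose. By edgeR at the same threshold 39.8% of all genes fell and 40.2% rose.

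Among 20 genes of the E2F and DREAM regulators 13 fell and 5 rose, against 39.8% and 40.2% of all genes. Those that rose were E2f1 (0.38), E2f4, Rb1, Lin37 and Lin52 (0.39). The repressors E2f8 and E2f7, themselves transcribed in S phase, went from 37.2 to 9.92 TPM (-1.88) and from 25.0 to 6.96 TPM (-1.81), and Foxm1, the regulator of G2/M genes, from 115 to 44.9 TPM (-1.32). Of 19 tested p53 and damage targets 13 rose and 2 fell (median 0.70), against 40.2% and 39.8% of all genes. The fall of Ccng1 (-0.08, edgeR adjusted p = 0.0490) was lost, leaving 1, with DESeq2, limma-voom, no filter, the replicate block and without IL-1β replicate 2 or 3 or inhibitor replicate 2 or 3. Of the list genes, 2 were also in the nucleotide excision list. Gadd45a went from 59.1 to 644 TPM (3.47) and Sesn2 from 6.70 to 53.8 TPM (3.04), both of which are also known targets of the integrated stress response. Cdkn1a, the CDK inhibitor p21, rose from 0.810 to 2.96 TPM (1.90), at a low level in both groups.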
